A study of Mus musculus with 8 samples.

Results

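Interferon-stimulated genes are the transcripts that cells make in answer to interferons, the cytokines of the antiviral response. The 41 members described here were chosen by gene symbol, each as the single row of the deposited tables that carries that symbol, among 78298 rows in all. They were measured by poly(A) RNA-seq in NIH3T3 cells, an immortalised mouse fibroblast line of wild-type genotype. The cells were grown in medium with fetal bovine serum and given Mic-628 (4 libraries) or vehicle (4 libraries). All 8 libraries carry treatment day 1, and whether this is the length of exposure was not established. By the title, the compound induces Period1 and shifts the mouse clock forward; the comparison made here asks whether genes of the interferon response differed in cells given it. The labels used here give no dose, and all libraries come from 1 cell line. Whether the 4 libraries of each group stem from independent cultures is not stated, so p-values here reflect library-to-library spread that could be purely technical.

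In the textbook pathway, type I interferons bind a receptor of 2 chains encoded by Ifnar1 and Ifnar2, and the attached kinases JAK1 and TYK2 activate STAT proteins. STAT2 and IRF9 are parts of the complex ISGF3, which binds the interferon-stimulated response element (ISRE) in promoters. Interferon gamma acts through another receptor and through STAT dimers that bind GAS elements. Many members also have a basal level without added interferon, set in part by interferon regulatory factors.

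No member was called changed by Mic-628. Of the 41 members, 29 passed the filter on low counts. By edgeR's quasi-likelihood test at an adjusted p under 0.05 (Benjamini-Hochberg over all 17128 tested rows), 0 were higher and 0 lower, where 4.37% of all tested rows were called, 2.13% as higher and 2.25% as lower. DESeq2 called 0 of the 29 as well, with 3.37% of all rows called, as did edgeR with the batch number as a block (3.64% of all rows) and DESeq2 with that block (1.48%). An unadjusted edgeR p under 0.05 was found for 6 members, 5 of them lower and 1 higher with Mic-628, and an unadjusted DESeq2 p under 0.05 for 2. Over all tested rows the edgeR share was 17.0%, with 8.81% lower and 8.15% higher, and the DESeq2 share was 12.0%. The median log2 fold change (Mic-628 over vehicle) of the 29 was -0.013, beside -0.004 over all tested rows. The range was -0.34 to 0.44. In the same libraries Per1, the gene of the series title, had 24.1, 26.1, 23.7 and 25.7 FPKM with Mic-628, against 4.13, 4.09, 4.43 and 4.58 FPKM with vehicle, without overlap (log2 fold change 2.53, SE 0.046; edgeR adjusted p = 1.16e-22).

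The 95% interval of the fold change lay within 1.5-fold in both directions for 24 of the 29 tested members, and for 83.3% of all tested rows. These intervals are those of each gene alone and are not adjusted for the number of genes. The 5 with wider intervals were all weakly expressed, with means of 0.10 to 0.463 FPKM over the 8 libraries. They were Irf7 (0.94 to 1.97-fold), Ifit3 (0.80 to 1.59), Gbp7 (0.67 to 1.62), Dhx58 (0.58 to 1.13) and Usp18 (0.54 to 1.15). In bulk RNA, fewer cells that express a gene and less RNA per cell cannot be told apart.

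**Figure D1:**
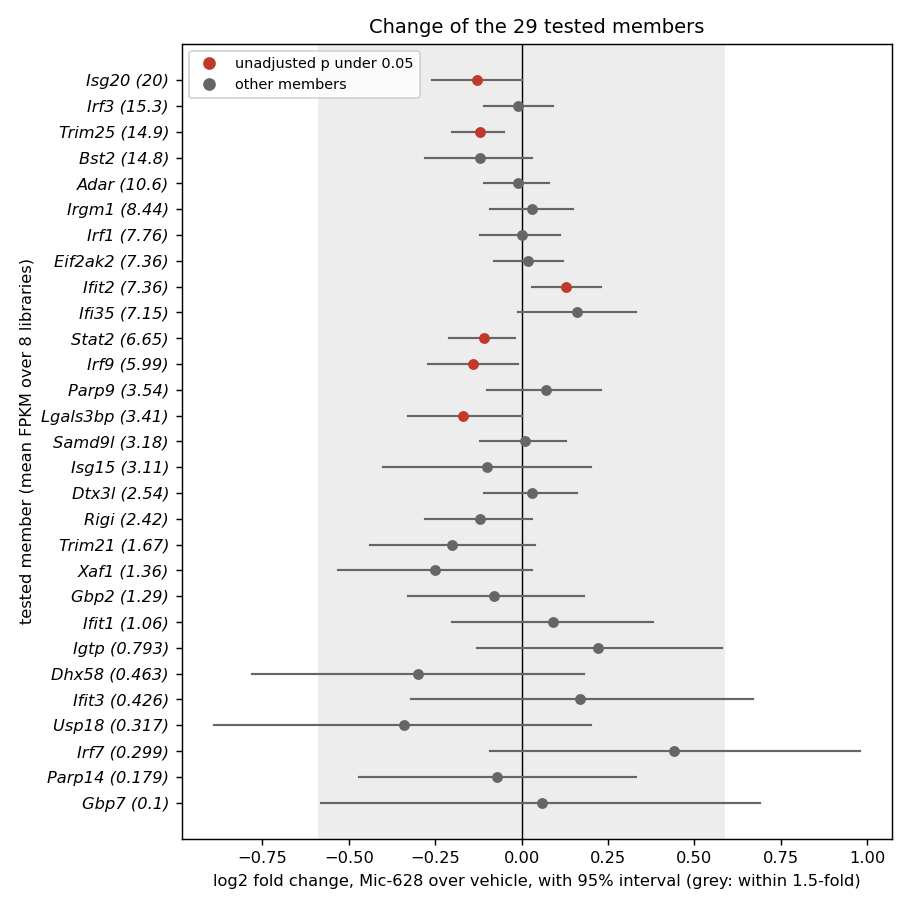
Log2 fold change of each tested member (Mic-628 over vehicle, x axis) with its 95% interval, ordered by mean FPKM. The grey band marks a change within 1.5-fold, red points the 6 members with an unadjusted p under 0.05. Of the 29 intervals, 24 stay inside the band, and the 5 that leave it belong to members with means of at most 0.463 FPKM.

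The factors that drive the response were present in every library. Stat2, a subunit of ISGF3, had 6.17, 6.76, 6.38 and 6.25 FPKM in Mic-628 replicates 1 to 4, against 7.06, 7.05, 6.60 and 6.91 FPKM with vehicle. The groups overlapped, with Mic-628 replicate 2 above vehicle replicate 3, although each Mic-628 library lay below the vehicle library of its batch (log2 fold change -0.11, SE 0.046; edgeR adjusted p = 0.204). Irf9, which gives ISGF3 its DNA-binding specificity, had 5.33, 5.77, 5.84 and 5.84 FPKM with Mic-628, against 5.95, 6.65, 6.57 and 5.99 FPKM with vehicle. These groups did not overlap, but the gap was small, and the log2 fold change of -0.14 (SE 0.062) was not called (edgeR adjusted p = 0.234).

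The other interferon regulatory factors had no common direction. Irf3, the constitutive factor that induces interferon genes, had 14.6, 16.5, 15.1 and 14.6 FPKM with Mic-628, against 15.7, 15.6, 14.8 and 15.2 FPKM with vehicle. Its groups overlapped and the fold change was 0.99, with an interval of 0.93 to 1.06. Irf1, a factor induced most strongly by interferon gamma, had 7.79, 7.60, 7.87 and 7.76 FPKM with Mic-628, against 7.48, 7.73, 7.90 and 7.96 FPKM with vehicle. Again the groups overlapped, and the fold change was 1.00 with an interval of 0.92 to 1.08. Irf7, the interferon-inducible factor that amplifies type I interferon production, was weak, with 0.349, 0.442, 0.296 and 0.299 FPKM in Mic-628 libraries, against 0.230, 0.214, 0.280 and 0.286 FPKM in vehicle libraries. All 4 Mic-628 libraries lay above all 4 vehicle libraries, on sums of 60 counts with Mic-628 and 43.5 counts with vehicle, and the log2 fold change of 0.44 (SE 0.26) was not called (edgeR adjusted p = 0.431). In all, the groups did not overlap for 4 of the 29 tested members (Irf7 above, Irf9, Isg20 and Trim25 below), while they did not overlap for 10.7% of all tested rows (5.68% above, 5.02% below).

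Among ubiquitin ligases and PARP enzymes, Trim25 came closest to a call. TRIM25 is the ligase that helps to activate the RNA sensor RIG-I. It had 14.1, 14.6, 14.1 and 14.3 FPKM with Mic-628, against 15.1, 16.0, 16.3 and 14.8 FPKM with vehicle. Every Mic-628 library lay below every vehicle library, and the means differed by more than either standard deviation (14.3 ± 0.230 FPKM with Mic-628 and 15.5 ± 0.710 FPKM with vehicle, SD, n = 4 each). The log2 fold change was -0.12 (SE 0.036), which is 0.92-fold with an interval of 0.87 to 0.97. Its edgeR adjusted p of 0.0531 was just over the threshold. It was called without vehicle replicate 1 (0.0282), without vehicle replicate 4 (0.0250), without batch 1 (0.0415), without batch 4 (0.0488) and with upper-quartile scaling (0.0450), and across 22 alternatives the adjusted p ran from 0.0250 to 0.477. Trim21, an antibody receptor and ubiquitin ligase, was at -0.20 on the log2 scale, not called either (edgeR adjusted p = 0.411). Parp9, its partner ligase gene Dtx3l and the neighbouring Parp14 had log2 fold changes of 0.07, 0.03 and -0.07, none of them called (edgeR adjusted p 0.730 to 0.904). The span of Parp9 shares 16855 bases with an opposite-strand row, Gm15564, at 6.35 FPKM, so its counts are uncertain.

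No classic antiviral effector that passed the filter was called. All 3 IFIT genes and 6 of 10 other antiviral effectors were tested, where 4.37% of all tested rows were called. Mx1, Mx2, Rsad2 and Ifi44 were not tested. Ifit2, which encodes an RNA-binding inhibitor of translation, was the only member with an unadjusted p under 0.05 on the higher side. It had 8.18, 7.17, 8.02 and 7.40 FPKM with Mic-628, against 6.80, 7.22, 7.17 and 6.87 FPKM with vehicle. Mic-628 replicate 2 lay among the vehicle libraries, and the log2 fold change of 0.13 (SE 0.050) was not called (edgeR adjusted p = 0.165). Its neighbours Ifit1 (0.09) and Ifit3 (0.17) had adjusted p-values of 0.805 and 0.788. Isg20, an exonuclease gene and the most abundant member, had 20.2, 20.3, 17.9 and 18.1 FPKM with Mic-628, against 21.4, 20.8, 20.5 and 21.1 FPKM with vehicle. Replicates 3 and 4 with Mic-628 were the lowest, the groups did not overlap, and the change of -0.13 on the log2 scale was not called (SE 0.063; edgeR adjusted p = 0.280). An opposite-strand row of 4.90 FPKM shares 458 bases with the span of Isg20, so its counts are uncertain.

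**Figure D2:**
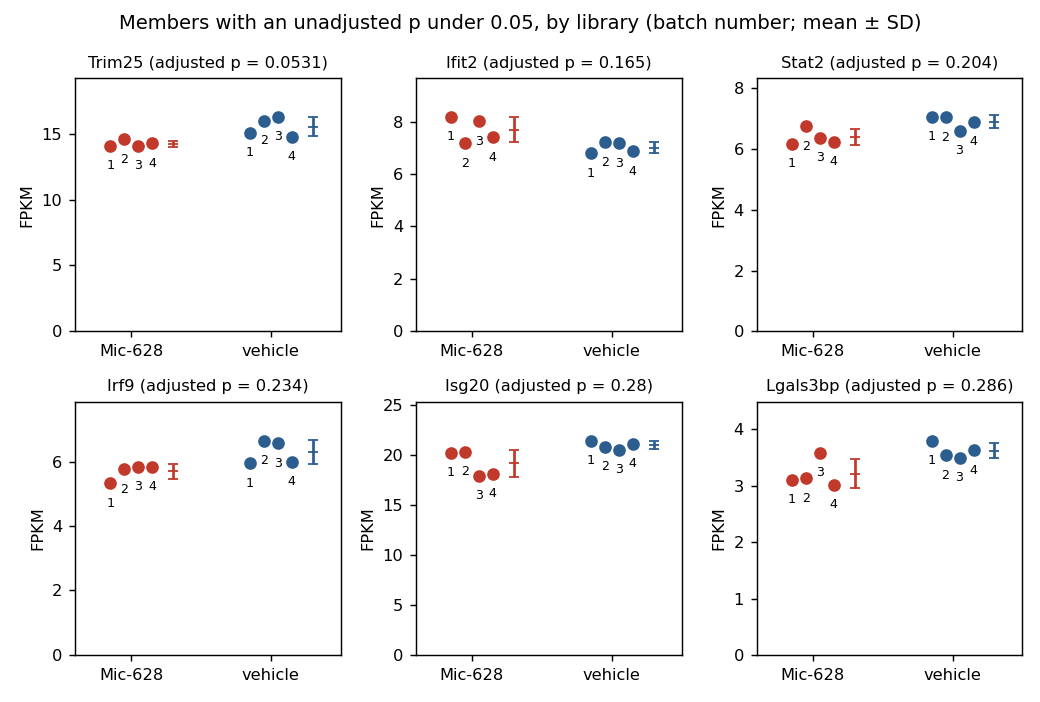
FPKM (y axis, from 0) of the 6 members with an unadjusted p under 0.05, in Mic-628 (red) and vehicle (blue) libraries, with batch numbers under the points and the mean ± SD (n = 4) beside them. The groups are separate for Trim25, Irf9 and Isg20 and overlap for Ifit2, Stat2 and Lgals3bp. The gaps are small beside the levels, and none of the 6 passed the adjusted threshold.

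The other tested effectors were not called either. Lgals3bp, a secreted glycoprotein gene, had 3.11, 3.13, 3.59 and 3.02 FPKM with Mic-628, against 3.80, 3.54, 3.50 and 3.63 FPKM with vehicle. Mic-628 replicate 3 lay inside the vehicle range, and the change of -0.17 on the log2 scale was not called (SE 0.080; edgeR adjusted p = 0.286). Bst2, which encodes tetherin, a protein that holds budding virions on the cell surface, averaged 14.1 ± 1.59 FPKM with Mic-628 and 15.5 ± 0.733 FPKM with vehicle (SD, n = 4 each; log2 fold change -0.12, edgeR adjusted p = 0.434). Ifi35 had a log2 fold change of 0.16 (edgeR adjusted p = 0.333), with Mic-628 replicate 4 the highest library at 8.68 FPKM. Its span also holds an opposite-strand row, Gm11626, at 4.98 FPKM, and reads of the pair may not be separable. Xaf1 (log2 fold change -0.25; edgeR adjusted p = 0.35) and Samd9l (0.01; 0.978) were not called.

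Isg15, the ubiquitin-like protein that gives the ISG15 system its name, is among the strongest interferon responders in most cells. It had 3.06, 3.11, 2.65 and 3.18 FPKM with Mic-628, against 3.6, 2.71, 3.23 and 3.32 FPKM with vehicle. The groups overlapped, and the fold change was 0.93 with an interval of 0.76 to 1.15 (edgeR adjusted p = 0.789). The span of Isg15 shares 697 bases with an opposite-strand row, Gm46878, at 1.30 FPKM, so its counts are uncertain. Usp18, which removes ISG15 and damps receptor signalling, was weak at 0.281 ± 0.0309 FPKM with Mic-628 and 0.353 ± 0.0631 FPKM with vehicle (SD, n = 4 each; edgeR adjusted p = 0.585). Its span shares 15744 bases with an opposite-strand row, Gm44148, at 0.230 FPKM, so the counts of Usp18 are uncertain too.

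Sensors and enzymes of double-stranded RNA split into an expressed and a nearly silent set. Rigi, the cytosolic RNA sensor RIG-I, had 2.10, 2.54, 2.28 and 2.33 FPKM with Mic-628, against 2.59, 2.66, 2.49 and 2.38 FPKM with vehicle. The groups overlapped, although each Mic-628 library lay below its batch partner (log2 fold change -0.12, SE 0.076; edgeR adjusted p = 0.431). Eif2ak2, the kinase PKR, and Adar, the RNA editing deaminase, were not called, with fold changes of 1.01 (interval 0.95 to 1.08) and 0.99 (0.93 to 1.06). Dhx58, the regulator LGP2, differed by -0.30 on the log2 scale (SE 0.23; edgeR adjusted p = 0.561), and its lowest library was Mic-628 replicate 1 at 0.213 FPKM. An opposite-strand row of 11.3 FPKM shares 520 bases with its span, so its low counts are uncertain. The oligoadenylate synthetase genes Oas1a and Oas2 and the relatives Oasl1 and Oasl2, with Ifih1, the sensor MDA5, each had at most 0.0850 FPKM in every library.

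Immunity-related and guanylate-binding GTPases act against intracellular pathogens and answer mainly to interferon gamma. Irgm1 was well expressed, with 8.93, 8.64, 8.49 and 8.11 FPKM in Mic-628 libraries, against 8.13, 9.11, 8.11 and 8.0 FPKM in vehicle libraries. The groups overlapped (log2 fold change 0.03, SE 0.058; edgeR adjusted p = 0.834). Igtp (0.22), Gbp2 (-0.08) and Gbp7 (0.06) had log2 fold changes that were not called (edgeR adjusted p 0.563 to 0.953). The span of Igtp shares 7974 bases with that of Irgm2 on the same strand (1.00 FPKM), so its counts are uncertain.

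Of the 12 members not tested, Mx1 had 0 counts in all 8 libraries, where 3 counts would have given 0.0447 to 0.0571 FPKM. The other 11 had from 1 to 56 counts over the 8 libraries. Summed counts were 27 with Mic-628 and 29 with vehicle for Ifi44, 26 and 17 for the guanylate-binding gene Gbp3, 16.5 and 24 for the sensor gene Zbp1, 13 and 22.5 for Rsad2, the radical-SAM enzyme viperin, and 7 and 21 for Oasl2. Oasl2 had 3, 1, 1 and 2 counts in Mic-628 libraries, against 5, 5, 6 and 5 counts in vehicle libraries. These groups did not overlap. In the fit without a filter on low counts its unadjusted p was 0.0132 and its edgeR adjusted p 0.256; it was singled out after its values were seen. The rest, Mx2, Oas1a, Oasl1, Ifih1, Oas2 and Iigp1, had sums of at most 4.5 counts with Mic-628 and 7.5 counts with vehicle. In the fit without a filter the edgeR adjusted p of those with any count was 0.645 or above. In the fit without a filter 0 of 40 members with any count were called, where 2.26% of all rows were. An unadjusted p under 0.05 was found for 7 of the 40, and for 10.3% of all rows of that fit.

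**Figure D3:**
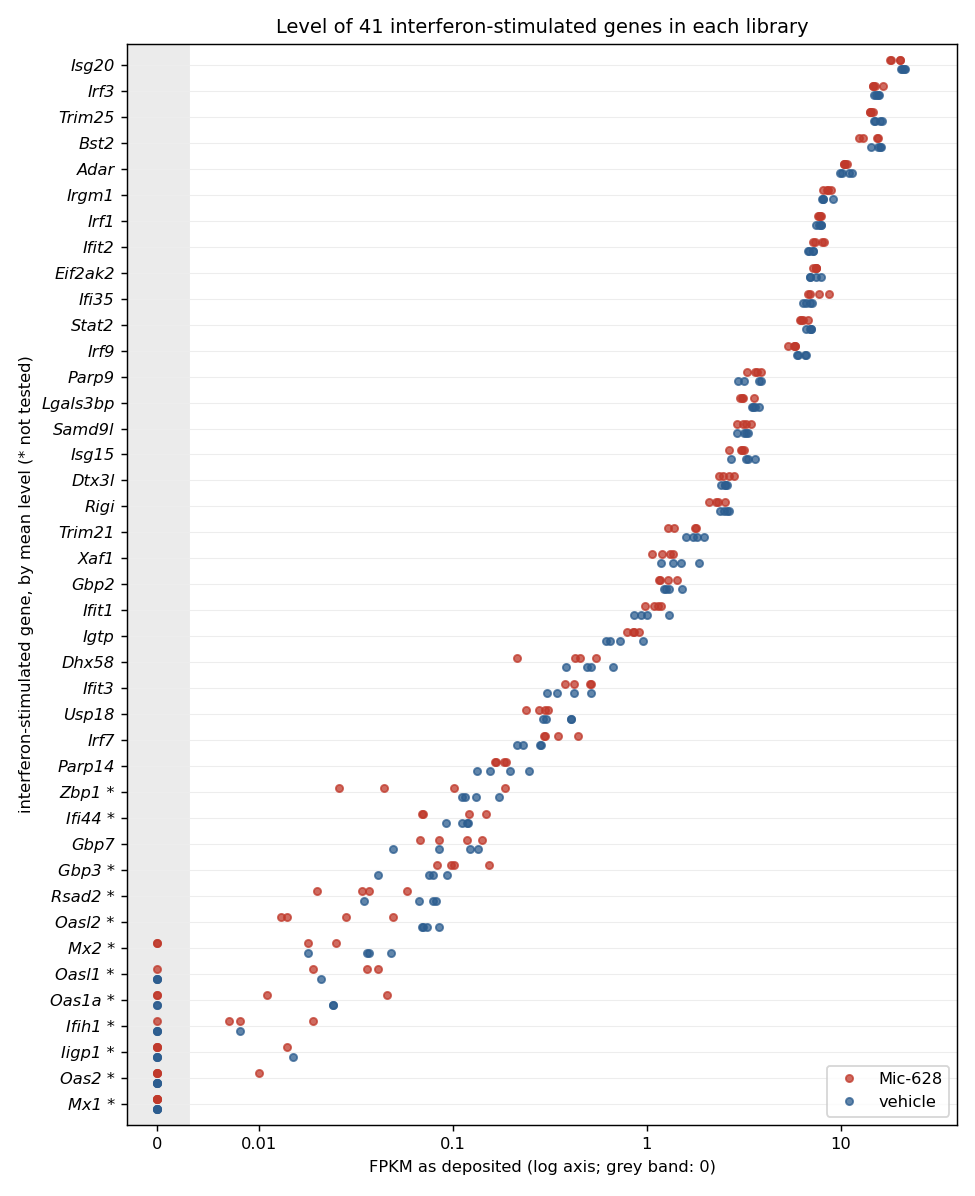
Deposited FPKM (x axis, log scale, with the grey band for 0) of the 41 members in each Mic-628 (red) and vehicle (blue) library, ordered by mean level. Asterisks mark the 12 members not tested. Levels run from 0 for Mx1 to 21.4 FPKM for Isg20, and libraries of the 2 groups lie closest for members above 1 FPKM.

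Levels were uneven among the members. Over the 8 libraries, 5 members averaged at least 10 FPKM (Isg20, Irf3, Trim25, Bst2 and Adar), 7 lay between 5 and 10, 10 between 1 and 5, 9 between 0.1 and 1, and 10 below 0.1. The tested members had a median of 3.18 FPKM, beside 6.47 FPKM over all tested rows, and 11 of the 29 were above that overall median. Neighbouring genes of 1 family differed strongly. On chromosome 19 of mm39, on the plus strand, Ifit2 (34528110 to 34553819) averaged 7.36 FPKM over the 8 libraries, Ifit3 (34560931 to 34566131) 0.426 FPKM and Ifit1 (34618271 to 34627409) 1.06 FPKM. On chromosome 3, also on the plus strand, Gbp7 (142236103 to 142255910) and Gbp3 (142265813 to 142278963) averaged 0.10 and 0.0904 FPKM, and Gbp2 (142326363 to 142343769) 1.29 FPKM. On chromosome 16, Parp14 (35653244 to 35691914, minus strand) averaged 0.179 FPKM. The divergent pair Dtx3l (35746881 to 35759521, minus strand) and Parp9 (35758840 to 35792975, plus strand) averaged 2.54 and 3.54 FPKM, and their spans share 682 bases. Members of 1 family can have similar sequences, so counts of close copies such as Ifit3 are uncertain.

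Promoters were searched for the elements that interferon factors bind, which are a known mark of this family. RefSeq promoters on build GRCm38.p6, from 250 bases before to 50 bases after each gene's start, were at hand for 31 of the 41 members. The ISRE core, GAAA repeated after a gap of 2 bases of any kind, on either strand, was found in a promoter of 15 of these 31 members (48.4%) and of 3.99% of all 27025 symbols. The GAS sequence TTCNNNGAA was found in 10 (32.3%), against 9.55% of all symbols. The E-box CACGTG, the element of the clock factors CLOCK and BMAL1, was found in 1 member, Trim25 (3.23%), against 8.09% of all symbols. Members are shown from both ends of the range of levels, with the ISRE core in capitals; where matches overlap, the whole run is in capitals. Trim25, chosen after its values were seen, is shown with its E-box in capitals. All are written 5′ to 3′ on the gene's strand. Bst2 lies at chr8:71537423-71537722 (minus strand), Irgm1 at chr11:48871371-48871670 (minus), Isg15 at chr4:156200769-156201068 (minus), Rsad2 at chr12:26456403-26456702 (minus) and Trim25 at chr11:88999153-88999452 (plus).
Bst2: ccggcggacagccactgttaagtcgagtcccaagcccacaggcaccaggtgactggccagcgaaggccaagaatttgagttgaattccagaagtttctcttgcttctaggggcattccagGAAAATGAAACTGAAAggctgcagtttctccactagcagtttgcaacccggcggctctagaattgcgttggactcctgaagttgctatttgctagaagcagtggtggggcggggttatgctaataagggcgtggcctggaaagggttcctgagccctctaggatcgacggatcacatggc
Irgm1: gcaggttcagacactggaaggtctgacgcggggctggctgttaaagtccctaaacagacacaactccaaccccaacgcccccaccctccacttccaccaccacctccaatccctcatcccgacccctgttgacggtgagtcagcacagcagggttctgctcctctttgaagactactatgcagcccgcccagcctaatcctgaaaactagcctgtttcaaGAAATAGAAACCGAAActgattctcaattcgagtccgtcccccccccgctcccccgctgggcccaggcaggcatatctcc
Isg15: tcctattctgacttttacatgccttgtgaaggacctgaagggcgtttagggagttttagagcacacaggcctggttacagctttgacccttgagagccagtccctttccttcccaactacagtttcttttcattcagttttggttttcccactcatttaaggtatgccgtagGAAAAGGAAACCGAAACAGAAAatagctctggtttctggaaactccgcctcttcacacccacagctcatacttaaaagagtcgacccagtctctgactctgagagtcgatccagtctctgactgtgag
Rsad2: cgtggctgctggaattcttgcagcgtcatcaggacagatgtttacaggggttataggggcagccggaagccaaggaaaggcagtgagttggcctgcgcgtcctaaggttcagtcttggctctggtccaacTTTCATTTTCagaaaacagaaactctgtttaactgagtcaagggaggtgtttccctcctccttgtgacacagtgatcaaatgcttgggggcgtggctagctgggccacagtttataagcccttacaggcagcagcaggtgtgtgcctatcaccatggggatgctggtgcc
Trim25: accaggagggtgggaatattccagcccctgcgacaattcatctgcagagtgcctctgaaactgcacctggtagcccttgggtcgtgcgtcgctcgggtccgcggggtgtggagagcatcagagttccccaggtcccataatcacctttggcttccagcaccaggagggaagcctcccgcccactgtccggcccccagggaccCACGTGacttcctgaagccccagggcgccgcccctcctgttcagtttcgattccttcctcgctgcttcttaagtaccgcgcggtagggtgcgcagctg

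The same element thus stood before genes of very different level, from Bst2 at a mean of 14.8 FPKM to Rsad2 at 0.0515 FPKM. Bst2 and Irgm1 hold 2 overlapping matches, Isg15 holds 3, and Rsad2 holds 1, on the opposite strand. The 15 members with an ISRE core had means of 0.00525 to 14.8 FPKM with a median of 1.06 FPKM, and the 16 without it, from Oasl1 at 0.0146 FPKM to Isg20, had a median of 4.70 FPKM. Of both sets 0 members were called by edgeR. The 11 tested members with the core had a median log2 fold change of 0.02 (range -0.20 to 0.22), and the 13 tested members without it had -0.01 (range -0.25 to 0.44). A match is a description of the letters and says nothing of a factor bound there.

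The genes upstream of the members were also compared, from a list of 32 ligand, receptor, kinase, adaptor and regulator genes. Of the 26 tested, 0 were called by edgeR or DESeq2, and 3 (11.5%) had an unadjusted edgeR p under 0.05, all higher with Mic-628. Over all tested rows, edgeR called 4.37% and DESeq2 3.37%. An unadjusted edgeR p under 0.05 was found for 17.0% of all tested rows, with 8.15% on the higher side. The interferon genes in the list, Ifnb1, Ifna4, Ifng, Ifnl2 and Ifnl3, had 0 counts in all 8 libraries, as had Irf8, a factor of blood cells. For Ifnb1, 3 counts would have given 0.160 to 0.204 FPKM. Both chains of the type I receptor were present, Ifnar1 at 13.5 ± 0.261 FPKM with Mic-628 and 13.9 ± 0.842 FPKM with vehicle, and Ifnar2 at 9.33 ± 0.312 FPKM with Mic-628 and 8.97 ± 0.462 FPKM with vehicle (SD, n = 4 each). The kinase gene Jak1 was not called, with a fold change of 1.01 and an interval of 0.96 to 1.05. Cgas, the DNA sensor, had 3.80, 3.67, 3.39 and 3.63 FPKM with Mic-628, against 3.38, 3.15, 3.23 and 3.13 FPKM with vehicle. Its groups were separate, but its log2 fold change of 0.17 (SE 0.062) was not called (edgeR adjusted p = 0.137). Jak2 (0.09), the feedback inhibitor gene Socs3 (0.08) and Irf5 (-0.38) had adjusted p-values of 0.251, 0.285 and 0.299. The groups did not overlap for 2 of the 26 tested genes, Cgas and Socs3, both above. Over all tested rows this share was 10.7%, with 5.68% above.

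A further 40 genes known as interferon-stimulated that are not members gave 24 tested rows, of which 0 were higher and 2 lower with Mic-628, Pml and Ifi27. Pml, which builds nuclear bodies, had 7.32, 7.86, 7.25 and 7.45 FPKM with Mic-628, against 8.73, 8.51, 8.51 and 8.50 FPKM with vehicle. All Mic-628 libraries lay below all vehicle libraries (log2 fold change -0.19, SE 0.041; edgeR adjusted p = 0.00562). Ifi27, a small membrane protein gene, had 31.7, 32.6, 36.2 and 37.2 FPKM with Mic-628, against 40.2, 40.4, 38.5 and 38.9 FPKM with vehicle, also without overlap (log2 fold change -0.20, SE 0.050; edgeR adjusted p = 0.0206). Ifi27 was not called without Mic-628 replicate 1 (0.0830), Mic-628 replicate 2 (0.0873), vehicle replicate 2 (0.0802), batch 1 (0.0925), batch 2 (0.235) or batch 3 (0.0541), and Pml not without batch 3 (0.0747). DESeq2 with the batch block called neither gene, at an adjusted p of 0.197 for Pml and 0.288 for Ifi27. Ifi204, a DNA-binding protein gene, had a log2 fold change of -0.19 that was not called (edgeR adjusted p = 0.135) but was called with the batch block in edgeR (0.0370) and without the low-count filter (0.0204). The abundant antiviral membrane protein gene Ifitm2 (log2 fold change -0.10), Ly6e (-0.09) and Shisa5 (-0.08) were not called (adjusted p 0.139, 0.243 and 0.277). Of the 24 tested, 6 had an unadjusted p under 0.05, all lower, and the median log2 fold change was -0.05. Over all tested rows, 2.25% were called lower, 8.81% had an unadjusted p under 0.05 on the lower side, and the median was -0.004. The groups did not overlap for 3 of the 24 (Pml, Ifi27 and Shisa5, all below), against 10.7% of all tested rows (5.02% below).

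**Figure D4:**
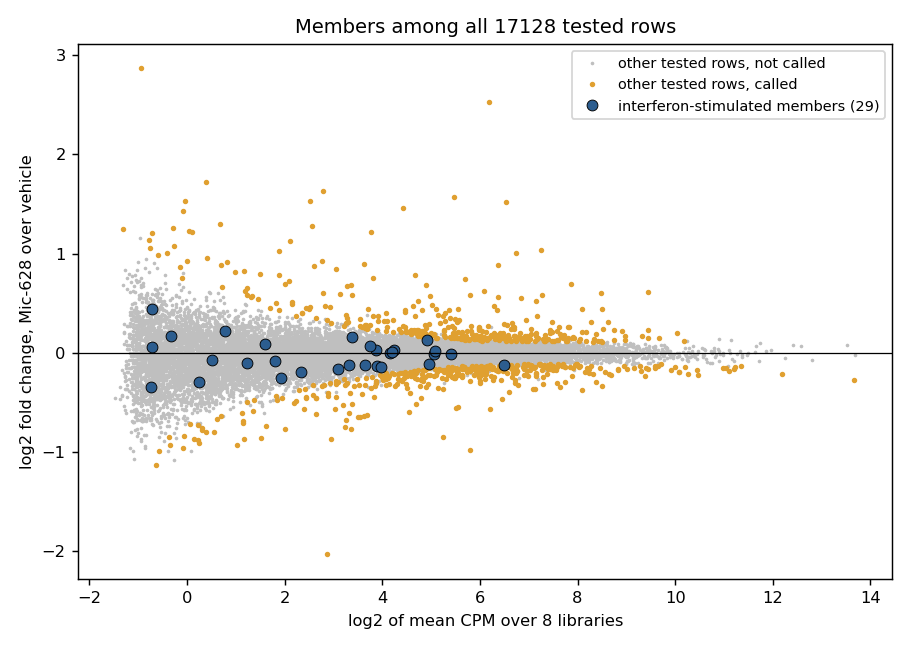
Log2 fold change (Mic-628 over vehicle, y axis) against the log2 of mean CPM (x axis) for 17128 tested rows. Called rows are orange, other rows grey, and the 29 tested members blue. The members lie between -0.34 and 0.44, and none of them is among the called rows.

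Total counts on listed rows ranged from 18.1 to 23.2 M per library, and the members took 431.6 to 446.0 counts per M with Mic-628 and 440.5 to 453.0 counts per M with vehicle (M stands for 1e6). Of 12 fibroblast markers 11 were tested, Postn was at most 0.089 FPKM, and 5 (Col1a2, Col3a1, Fn1, Vim and Lox) were called lower with Mic-628 by edgeR at an adjusted p under 0.05, where 2.25% of all tested rows were called lower. The 12 had a summed level of 4752 to 4855 FPKM with Mic-628 and 5422 to 5633 FPKM with vehicle. Macrophage and blood markers summed to 10.2 to 11.1 FPKM with Mic-628 and 9.14 to 10.2 FPKM with vehicle, with 7 of 10 below 0.3 FPKM in every library, and Adgre1 and Tyrobp at 0. Epithelial markers summed to 1.85 to 2.68 FPKM with Mic-628 and 1.86 to 2.10 FPKM with vehicle. Endothelial markers summed to 0.137 to 0.173 FPKM with Mic-628 and 0.142 to 0.271 FPKM with vehicle. Their part in the members' values was not tested.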

How the data were processed

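Poly(A) RNA of 8 NIH3T3 libraries was sequenced from a stranded kit, per the labels' protocols. The tools listed in the submitters' processing notes are STAR 2.7.10a, HOMER 4.11 and bcl2fastq, and the build is GRCm39 (mm39); roles are not given. The authors deposited estimated counts over exons, in steps of 0.5, and FPKM for the same 78298 rows; FPKM recomputed from counts, exon length and header totals of 19.6 to 25.1 M differed by at most 5.0e-04. No columns were left unmatched to samples. Opposite-strand or overlapping rows may share reads, since whether counting used strand is not given in the sources used here. The spans of 18 of the 41 members overlapped that of another row.

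Counts were rounded and fitted in R 4.3.3 with edgeR 4.0.16 (filterByExpr with minimum count 10, TMM, quasi-likelihood F test, Benjamini-Hochberg over 17128 rows, called at 0.05); the SE is the log2 fold change divided by the square root of F. The alternatives used DESeq2 1.42.0 and limma 3.58.1, among other choices given in the closing section. Only the main edgeR fit was tested on simulated data, and the alternatives were not. It recovered 39 of 50 rows changed 1.2-fold, 42 of 50 at 1.5-fold, 46 of 50 at 2-fold and 50 of 50 at 3-fold. Among the unchanged rows 7 were called. The changed rows were drawn from those above a minimum mean count, so the weakest genes were not covered. Levels are the deposited FPKM, and floors are 3 counts per library, covering counting error only. Members and lists were chosen with earlier results of these data known; all members are named, with per-library values, by rule, for the factors and the 4 smallest p-values. From other lists the called genes and up to 4 more with the smallest p are named. Further genes given per library were chosen after their values were seen. Figures were drawn with matplotlib 3.10.9.

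The labels give 1 batch number to 1 library of each group, so the numbers pair the libraries. Libraries of 1 batch did not deviate together. Over 10292 rows with a mean log2 CPM above 3, correlations of deviations from the group mean ran from -0.0949 to 0.0744 within batches and from -0.117 to 0.141 between them. Replicates differed by more than counting noise (chi-square per row 1.74 to 5.8), so none was treated as a duplicate.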

Additional observations from a re-analysis of the deposited data

Results flagged for a closer look

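In 78 groups of 4 libraries, those of the 29 tested members and 10 further named genes, 4 groups had 1 library far from the other 3; chance alone gives about 1 in 20 such groups. Irf9 was at 5.33 FPKM in Mic-628 replicate 1, below 5.77 to 5.84 FPKM in the others. Irgm1 was at 9.11 FPKM in vehicle replicate 2, above 8.0 to 8.13 FPKM in the others. Pml was at 8.73 FPKM in vehicle replicate 1, above 8.50 to 8.51 FPKM, and Socs3 at 15.4 FPKM in vehicle replicate 4, below 16.8 to 17.1 FPKM.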

How the results depend on the processing

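Among 22 alternatives, no member other than Trim25 was called in any. The count of called members was 0, and became 1 (Trim25, lower) with upper-quartile scaling, without batch 1 and without batch 4, with a range of 0 to 1 when single libraries were left out. The members' median log2 fold change was -0.07 with the stricter filter and without batch 4, -0.04 without batch 1, and -0.04 to -0.01 when single libraries were left out. Over all rows, 749 were called, against 253 with DESeq2 and the replicate block, 277, 273 and 170 with limma (pseudocount 1, 0.1, and 1 on all rows), 331 without batch 2, 292 without batch 3, and 426 to 802 without single libraries (426 without vehicle replicate 2, 438 without Mic-628 replicate 3). Of the other interferon-stimulated genes, 2 were called, against 0 with DESeq2 and the block, 1, 1 and 0 with those limma forms, 1 without batch 1 or 2, 0 without batch 3 and 1 to 2 without single libraries. The edgeR replicate block gave 0 members, 3 other interferon-stimulated genes and 624 rows; beyond Pml, Ifi27 and Ifi204, blocking changed the call of no gene named here among the members and other interferon-stimulated genes. The causes were not tested.

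Signs turned in leave-out fits for 9 members that were called in no setting. Without single libraries, log2 fold changes ran from -0.02 to 0.01 for Irf1, -0.05 to 0.01 for Irf3, -0.15 to 0.25 for Gbp7, -0.18 to 0.10 for Parp14, -0.02 to 0.07 for Dtx3l, -0.01 to 0.06 for Eif2ak2, -0.04 to 0.02 for Adar and -0.03 to 0.05 for Samd9l. Without batch 1 they were 0.02 (Irf3), -0.22 (Gbp7), -0.0001 (Irgm1), -0.0034 (Dtx3l) and -0.01 (Samd9l). Without batch 2 they were 0.01 (Irf1), 0.01 (Parp14), -0.0032 (Dtx3l) and -0.01 (Eif2ak2), and without batch 3 0.07 (Parp14). Without batch 4 they were 0.01 (Irf1), 0.01 (Irf3), -0.19 (Gbp7), -0.0042 (Eif2ak2), 0.03 (Adar) and -0.0018 (Samd9l). Low counts kept 12 members out of the tests in the main fit, and the part of sequencing depth in this was not tested.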
